A study of Mus musculus with 18 samples.

Results

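The genes described here are 44 genes of DNA replication and the G1/S transition, most of them known as targets of the E2F transcription factors. They were listed by name, with earlier results of these data known. All 44 were found among the 35275 genes of the deposited expression table, and all 44 were among the 13869 genes that passed the filter on low values. By role they comprise 10 genes of origin licensing, 8 of helicase activation, 8 of the replicative polymerases and primase, 8 of the sliding clamp, its loader and single-strand binding, 2 of flap and nick processing, 4 of deoxynucleotide supply and 4 G1/S regulators.

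Expression was measured by RNA-seq of polyadenylated RNA in 18 libraries of C2C12, an established mouse myoblast line whose cells leave the cell cycle and fuse into myotubes in low serum, here labelled PAX7 negative. The 3 lines were wild-type (control), overexpressing MUNC in its spliced form (MUNC spliced) or overexpressing it in its genomic form (MUNC genomic). MUNC is a long noncoding RNA from the region upstream of Myod1. Each line was harvested in growth medium with 20% fetal bovine serum near confluence (GM) and after 3 days in 2% horse serum (DM3), with 3 biological replicates in each of the 6 groups. The labels do not say whether a line is a clone or a pool, or which vector drives MUNC, and the level of MUNC itself was not analysed here.

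Before S phase, the origin recognition complex, Cdc6 and Cdt1 load the Mcm2 to Mcm7 helicase onto replication origins, and the Dbf4-Cdc7 kinase, Cdc45, Mcm10 and the GINS complex then switch it on. Polymerases α, δ and ε copy the template with the help of the Pcna clamp, and Fen1 and Lig1 join the lagging-strand fragments. Activator E2F proteins such as E2f1 and E2f2 drive most of these genes and also cyclin E, and in quiescent or differentiating cells RB-family proteins hold E2F targets silent. Withdrawal from the cell cycle is a known early step of myoblast differentiation.

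The values are FPM, fragments per gene divided by a factor for library size and not by gene length. Recovered depth was 38416702 to 68788327 reads per library, so that 3 reads, the limit a count of 0 allows, came to at most 0.0757 FPM. The labelled cell type was checked against lists of marker genes. Myf5, Cdh15, Itga7 and Des were at 16 FPM or more in every library, whereas Pax7, Cav3 and Myf6 were at or near 0 throughout, and Myod1 was at most 0.221 FPM in all 6 control libraries. Of the myotube markers, Myog reached at most 0.434 FPM in control DM3. Myog was at 7.89, 14.7 and 6.50 FPM in MUNC genomic DM3 and 226, 52.6 and 41.0 FPM in MUNC spliced DM3. In control cells the 8 matched myotube markers, of 10 listed, summed to 18.3 to 37.3 FPM in GM and 18.2 to 25.6 FPM in DM3. Their sum thus did not rise in control cells. Single markers differed from the sum, as 2 of the 8 were at 1 FPM or more in all 3 control GM libraries and 4 in control DM3. DM3 is used here for the medium and day and is not taken to mean a differentiated state. The leukocyte markers Ptprc, Csf1r and Itgam, the endothelial markers Pecam1 and Kdr and the epithelial marker Epcam were under 0.5 FPM in all libraries. Others of these lists were not, with Cd14 at 7.77 to 19.7 FPM, and with Krt8 at up to 14.9 FPM and Cdh5 at up to 7.21 FPM in MUNC genomic cells. In bulk RNA, fewer cells in cycle and less RNA per cycling cell cannot be told apart.

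2 libraries of the MUNC spliced line stood apart in these genes and touch the results below. MUNC spliced DM3 replicate 1 was the highest of its 3 replicates for 44 of 44 genes and the highest of all 9 DM3 libraries for 41. Its level was a median of 2.17 times the mean of replicates 2 and 3 (from 1.21 for Gins4 to 4.67 for Cdc6), and it also held the most Myog, Myh3, Ttn and Acta1 RNA. MUNC spliced GM replicate 2 was the lowest of its group for 43 of 44 genes, at a median of 0.681 times the mean of the other replicates. Replicate 2 was also the lowest GM library for most of these genes in the other lines, for 34 in control and 40 in MUNC genomic cells, and replicate 3 was the highest for 27 in control, 34 in MUNC spliced and 39 in MUNC genomic cells. Control DM3 replicate 1 was the highest of its group for 40 genes, at a median ratio of 1.44.

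**Figure D1:**
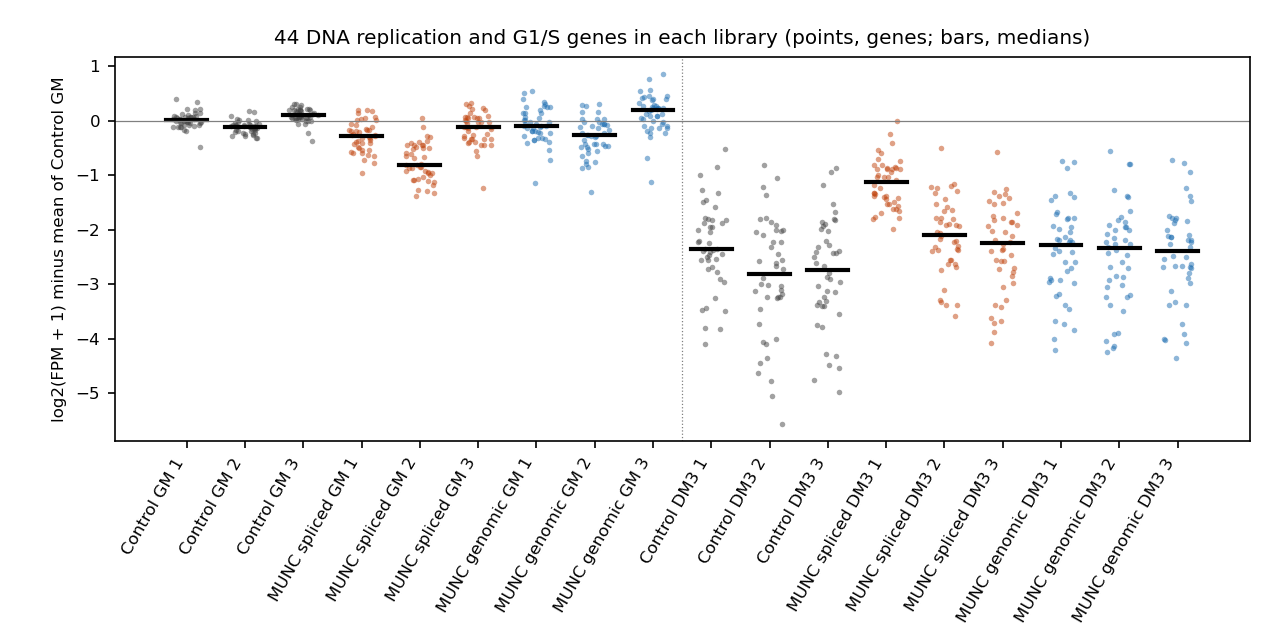
Level of the 44 genes in each of the 18 libraries, as log2(FPM + 1) minus the gene's mean in control GM. Each point is a gene and each bar is the library's median. By median, all 9 DM3 libraries lie below all 9 GM libraries, and MUNC spliced DM3 replicate 1 is the least reduced of the DM3 libraries.

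In control cells, all 44 genes fell from GM to DM3. The test was limma on log2(FPM + 1) with Benjamini-Hochberg adjustment over all 13869 genes, and in the same comparison 28.6% of all genes were called lower. The median log2 change of the 44 was -2.65, against 0.02 over all genes tested, and for all 44 the GM and DM3 libraries did not overlap (30.5% of all genes were lower without overlap). A median of 14.9% of the GM level was left in DM3, and 35 of the 44 genes kept under 25%. In MUNC spliced cells, all 44 genes also fell (18.4% of all genes were called lower), with a median log2 change of -1.43 and a median of 38.5% of the GM level left. Their GM and DM3 libraries did not overlap for 42 of 44, against 23.3% of all genes. In MUNC genomic cells, 43 of 44 genes fell (25.1% of all genes), with a median log2 change of -2.42 and a median of 17.5% left. Their libraries did not overlap for 43 of 44, against 30.3% of all genes, and E2f2 was the gene not called. The authors' deposited table for control DM3 against GM called 44 of the 44 lower, at a median log2 fold change of -2.77, and 21.7% of the genes it tested.

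**Figure D2:**
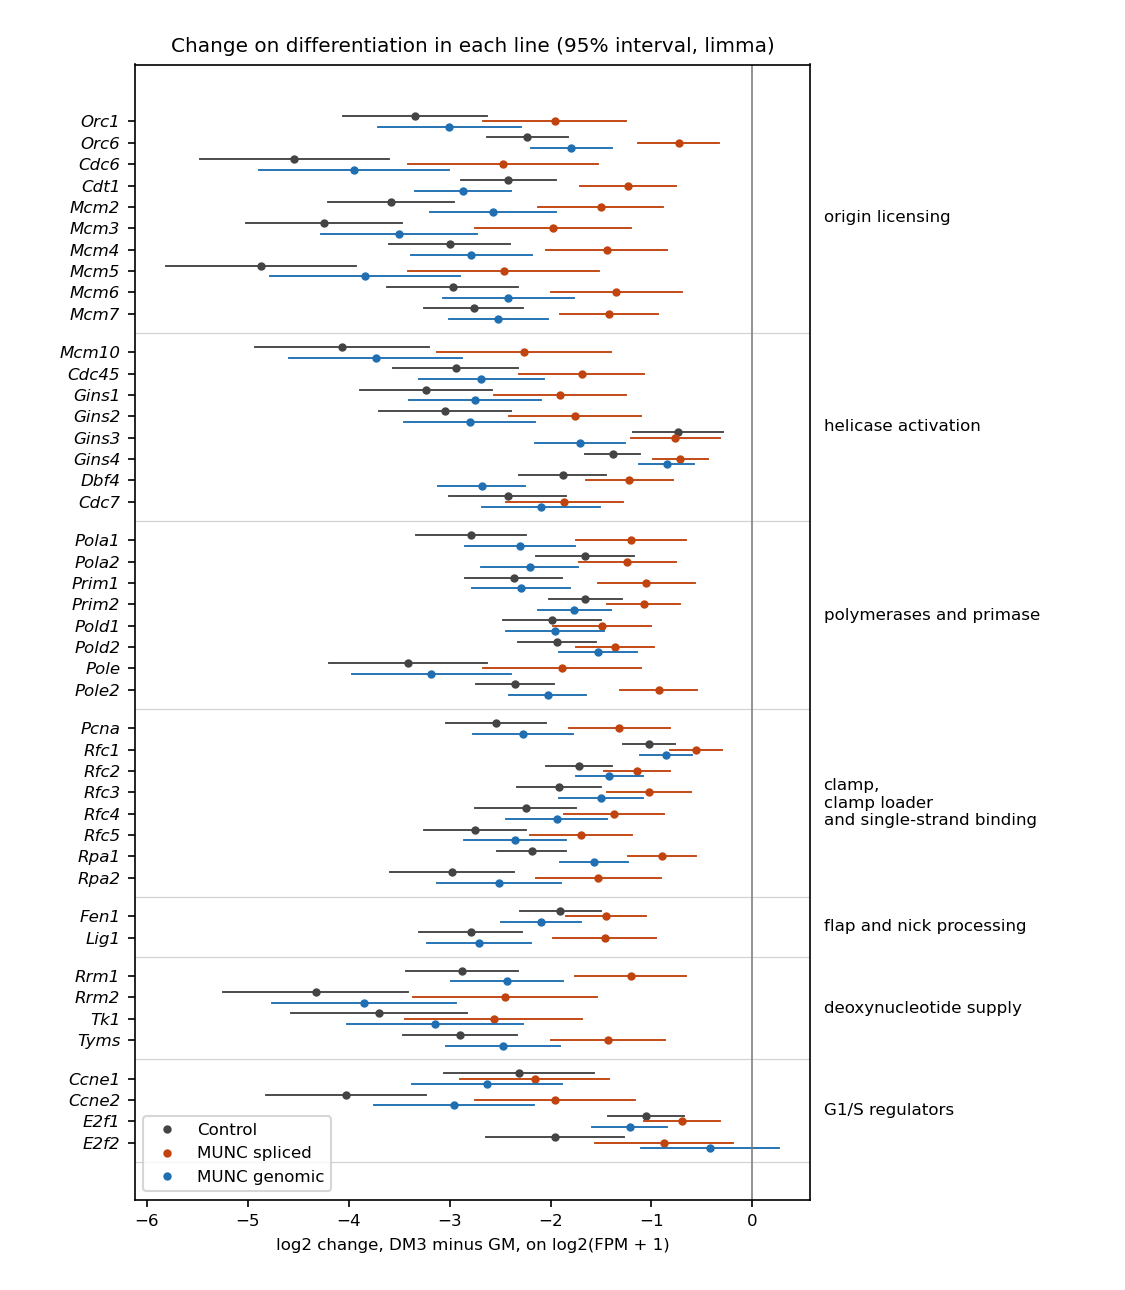
Log2 change from GM to DM3 on the log2(FPM + 1) scale for each of the 44 genes, grouped by role. Points are limma estimates and lines are 95% intervals, in 3 colours for the 3 lines. The MUNC spliced estimates lie nearer to 0 than those of control cells for 43 of 44 genes, and the MUNC genomic interval of E2f2 crosses 0.

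Among the licensing genes, Mcm5, a subunit of the replicative helicase encoded at chr8:75109569-75128439 (GRCm38), was at 244, 204 and 299 FPM in control GM and 13.5, 4.26 and 6.89 FPM in control DM3. In MUNC spliced cells it was at 185, 126 and 239.9 FPM in GM and 77.8, 24.4 and 15.9 FPM in DM3. In MUNC genomic cells it was at 223, 178 and 306 FPM in GM and 18.3, 13.1 and 14.5 FPM in DM3. GM and DM3 did not overlap in any line, and all 3 MUNC spliced DM3 libraries lay above all 3 control DM3 libraries. Mcm5 fell by 4.87 on the log2 scale in control cells, the largest fall of the 44.

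The promoter of Mcm5 carries overlapping E2F words, and it is shown with promoters of other genes on which the results turn. The words searched were TTTCCCGC, TTTCGCGC, TTTGGCGC and TTTGCCGC on both strands. The window ran from 250 bases before to 50 after a listed start of transcription, and words in it are in capitals. The sequences are from RefSeq (GRCm38.p6), 5′ to 3′ on the gene's strand. Mcm5 (chr8:75109259-75109558, + strand), Mcm6 (chr1:128359656-128359955, - strand), Cdc6 (chr11:98907901-98908200, + strand), Cdt1 (chr8:122567765-122568064, + strand) and E2f2 (the upstream of its listed promoters, chr4:136172024-136172323, + strand) each hold at least 1 word. Dbf4 (chr5:8422667-8422966, - strand) and E2f1 (chr2:154569377-154569676, - strand) hold none in this window, and are shown because they differed from control in the same direction in both MUNC lines in GM. The E2f1 window lies wholly inside the annotated gene, whose 5′ end is at chr2:154569892, so it does not cover the bases around that end. The Cdc6 window, too, lies inside its annotated gene, which starts at chr11:98907801.
Mcm5: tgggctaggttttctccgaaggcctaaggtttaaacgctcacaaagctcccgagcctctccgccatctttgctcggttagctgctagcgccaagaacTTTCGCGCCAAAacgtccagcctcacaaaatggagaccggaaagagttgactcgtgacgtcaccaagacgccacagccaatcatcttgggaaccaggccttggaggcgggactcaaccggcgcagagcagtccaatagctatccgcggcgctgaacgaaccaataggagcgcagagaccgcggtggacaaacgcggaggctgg
Mcm6: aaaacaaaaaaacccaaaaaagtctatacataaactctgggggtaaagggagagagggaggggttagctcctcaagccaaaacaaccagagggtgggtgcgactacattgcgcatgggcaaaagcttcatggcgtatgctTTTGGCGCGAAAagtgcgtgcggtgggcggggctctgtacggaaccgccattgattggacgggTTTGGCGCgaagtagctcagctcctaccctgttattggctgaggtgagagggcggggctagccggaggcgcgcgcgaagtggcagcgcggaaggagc
Cdc6: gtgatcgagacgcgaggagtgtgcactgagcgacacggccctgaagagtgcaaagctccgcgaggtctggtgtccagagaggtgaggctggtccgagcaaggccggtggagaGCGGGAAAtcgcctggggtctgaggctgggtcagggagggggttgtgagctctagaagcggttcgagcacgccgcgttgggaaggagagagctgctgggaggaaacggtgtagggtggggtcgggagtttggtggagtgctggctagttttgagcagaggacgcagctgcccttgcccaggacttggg
Cdt1: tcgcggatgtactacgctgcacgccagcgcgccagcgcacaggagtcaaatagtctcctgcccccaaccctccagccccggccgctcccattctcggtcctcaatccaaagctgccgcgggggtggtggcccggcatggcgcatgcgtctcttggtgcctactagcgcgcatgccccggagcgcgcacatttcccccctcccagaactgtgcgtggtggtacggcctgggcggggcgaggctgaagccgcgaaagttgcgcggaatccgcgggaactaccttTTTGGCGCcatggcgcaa
E2f2: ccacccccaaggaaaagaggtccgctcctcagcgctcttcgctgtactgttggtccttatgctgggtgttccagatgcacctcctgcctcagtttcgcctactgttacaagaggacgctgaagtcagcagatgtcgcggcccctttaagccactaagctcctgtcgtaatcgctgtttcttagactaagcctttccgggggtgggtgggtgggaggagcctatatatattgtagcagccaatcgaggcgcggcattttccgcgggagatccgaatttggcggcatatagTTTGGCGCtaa
Dbf4: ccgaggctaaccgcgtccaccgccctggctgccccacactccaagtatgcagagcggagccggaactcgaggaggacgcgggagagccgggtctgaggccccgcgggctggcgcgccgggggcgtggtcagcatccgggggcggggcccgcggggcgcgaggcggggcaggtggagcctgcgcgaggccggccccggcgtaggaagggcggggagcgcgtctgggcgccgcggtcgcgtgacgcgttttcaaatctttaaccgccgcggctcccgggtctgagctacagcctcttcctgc
E2f1: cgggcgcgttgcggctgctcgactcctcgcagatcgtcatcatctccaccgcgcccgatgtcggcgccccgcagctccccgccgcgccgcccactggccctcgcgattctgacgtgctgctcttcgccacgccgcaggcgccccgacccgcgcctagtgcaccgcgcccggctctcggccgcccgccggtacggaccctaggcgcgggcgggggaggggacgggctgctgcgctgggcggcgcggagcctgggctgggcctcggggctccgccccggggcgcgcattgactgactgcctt

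RefSeq promoters were matched for 36 of the 44 genes. An E2F word was present in 14 of these 36 (38.9%), against 704 of all 27025 genes with promoters of the same length in the table (2.60%), a gene being counted where any of its promoters held a word. These 14 genes are Orc1, Cdc6, Cdt1, Mcm3, Mcm5, Mcm6, Mcm7, Gins3, Pola1, Pold1, Pole2, Rfc3, Lig1 and E2f2. The CCAAT word, on either strand, was present in 21 of 36 (58.3%) against 41.1% of all genes. The words TTTGAA and TTCGAA, known as cell cycle homology regions, were present in 10 of 36 genes (27.8%) and in 21.7% of all genes. The median log2 fall in control cells was -2.77 for the 14 genes with an E2F word and -2.40 for the 22 without. In MUNC spliced cells these medians were -1.39 and -1.40, and in MUNC genomic cells -2.47 and -2.32. Genes with a word ranged in control cells from -4.87 for Mcm5 to -0.74 for Gins3. A match describes letters in this window and does not show binding. The windows of E2f1, Cdc6 and Mcm7 lie inside the annotated genes, not at their 5′ ends. So does the only window of Lig1 that holds a word, whereas the Lig1 window before its annotated start holds none. E2f1 is counted here without a word, and Cdc6, Mcm7 and Lig1 with a word, which limits this split.

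Cdc6, the loader that brings the helicase to the origin complex, kept 3.17% of its mean GM level in control DM3. By this share, taken without the added 1 FPM, it kept the least of the 44, and Mcm5 kept 3.30%. It was at 70.5, 54.8 and 77.8 FPM in control GM and 3.88, 1.05 and 1.51 FPM in control DM3. In DM3 it was at 20.1, 5.56 and 3.06 FPM in MUNC spliced and 3.74, 3.15 and 3.53 FPM in MUNC genomic cells. The MUNC spliced replicates spread over a wide range and overlap the control replicates. Mcm2, another helicase subunit, was at 172, 174 and 214 FPM in control GM and 23.1, 10.7 and 12.6 FPM in control DM3. Both MUNC lines held more Mcm2 RNA than control in DM3, at 59.9, 30.9 and 26.3 FPM in MUNC spliced and 40.0, 41.3 and 41.4 FPM in MUNC genomic cells, with no overlap. Orc6, a subunit of the origin recognition complex, had the smallest fall of the licensing genes in all 3 lines, with 20.4% left in control, 60.02% in MUNC spliced and 27.5% in MUNC genomic cells. Per kilobase of exon, the helicase subunits in control GM ranged from 26.9 ± 3.43 FPM per kb for Mcm2 to 80.8 ± 9.97 FPM per kb for Mcm3 (SD, n = 3).

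Among the genes of helicase activation, Mcm10 fell most in control cells, from 74.0 ± 12.2 to 3.68 ± 1.93 FPM (SD, n = 3). The GINS genes, whose 4 products form a ring bound to the helicase, did not fall alike. Gins1 and Gins2 kept 7.86% and 9.78% of their GM level in control cells, Gins4 37.1% and Gins3 58.3%, the most of all 44 genes. Gins3 was at 20.2, 19.2 and 23.0 FPM in control GM and 14.1, 11.4 and 10.9 FPM in control DM3. It was lowest in MUNC genomic DM3, at 5.82, 5.93 and 5.35 FPM, below every control and MUNC spliced DM3 library. Gins3 had an E2F word in its promoter.

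Dbf4, the activating subunit of the Cdc7 kinase (chr5:8396973-8422716, GRCm38), differed between the lines in both media. It was at 348, 261 and 205 FPM in control GM, 135, 101 and 112 FPM in MUNC spliced GM and 119, 106 and 121 FPM in MUNC genomic GM. In DM3, Dbf4 was at 87.8, 72.2 and 56.9 FPM in control cells, 65.8, 40.7 and 43.7 FPM in MUNC spliced cells and 19.1, 16.9 and 15.5 FPM in MUNC genomic cells. All GM libraries of both MUNC lines lay below all control GM libraries, and in DM3 the MUNC genomic libraries lay below all others. The catalytic subunit Cdc7 was not called by limma in any of the 4 comparisons of a MUNC line with control, whereas the authors' deposited table called it higher in MUNC genomic DM3 (log2 fold change 0.46, adjusted p = 0.0309).

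All 8 polymerase and primase genes fell in each line. Pole, the catalytic subunit of polymerase ε, had the largest fall in control cells, from 57.9, 90.7 and 101 to 10.9, 3.95 and 6.76 FPM, and Prim2, the large primase subunit, the smallest, from 44.3, 45.6 and 45.5 to 17.4, 12.3 and 11.8 FPM. Pole2, the second subunit of polymerase ε, kept 18.0% of its GM level in control, 51.2% in MUNC spliced and 22.3% in MUNC genomic cells. The polymerase δ genes Pold1 and Pold2 kept similar shares of 24.1% and 25.1% in control cells.

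Pcna, the sliding clamp, was at 259, 207 and 257 FPM in control GM and 49.9, 35.5 and 37.1 FPM in control DM3. In MUNC spliced cells it was at 179, 123 and 191 FPM in GM and 102, 56.7 and 45.6 FPM in DM3, and in MUNC genomic cells at 179.8, 158 and 219 FPM and 38.9, 36.5 and 36.3 FPM. GM and DM3 did not overlap in any line. The 5 clamp loader genes differed in size of fall. Rfc1, the large subunit, kept 49.0% in control cells, whereas Rfc5 kept 13.6%. Rpa2 of the single-strand binding complex kept 11.3% and its partner Rpa1 21.9%.

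Fen1, the flap endonuclease, and Lig1, the ligase that seals the nicks, kept 15.4% and 14.1% in control cells. Fen1 was the lowest of the 44 per kilobase of exon in control GM (2.69 ± 0.381 FPM per kb, SD, n = 3). In GENCODE M21, 84.2% of its exonic length is overlapped by genes on the opposite strand, as is 67.3% of that of Gins2 and 17.4% of that of Ccne2. For 8 of the 44 genes, over 10% of the exonic length is overlapped by other genes. Whether reads were counted by strand is not given in the sources used here, so values of these genes are uncertain.

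Of the genes of deoxynucleotide supply, Rrm2, the S-phase subunit of ribonucleotide reductase, had the highest level per kilobase of all 44 in control GM (134 ± 15.1 FPM per kb, SD, n = 3). It was at 379.7, 324 and 406 FPM in control GM and 25.1, 13.9 and 15.0 FPM in control DM3. In DM3 it was at 144, 35.7 and 29.1 FPM in MUNC spliced and 22.0, 18.7 and 17.1 FPM in MUNC genomic cells. Every MUNC spliced DM3 library lay above every control DM3 library, with replicate 1 far above replicates 2 and 3. Rrm1, its larger partner, kept 13.7% in control and 46.1% in MUNC spliced cells. Tk1 and Tyms, which make thymidine nucleotides, kept 7.18% and 12.8% in control cells.

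The G1/S regulators differed among themselves. The cyclin E genes Ccne1 and Ccne2 encode activators of Cdk2. Ccne2 kept 4.98% of its GM level in control, 28.6% in MUNC spliced and 11.5% in MUNC genomic cells. Ccne1 kept 18.6%, 24.0% and 14.0% in the same order. E2f1 fell less, from 60.7, 57.7 and 74.8 to 31.6, 26.9 and 32.7 FPM in control cells, and was lower still in MUNC genomic DM3 (19.0, 15.3 and 17.3 FPM). E2f2 (chr4:136172394-136196057, GRCm38) was at 38.8, 36.8 and 37.6 FPM in control GM and 10.1, 8.40 and 8.53 FPM in control DM3. In MUNC genomic cells it was at 32.9, 35.8 and 23.2 FPM in GM and 20.3, 25.3 and 21.7 FPM in DM3, and these libraries overlapped. In MUNC spliced DM3 it was at 37.4, 11.9 and 9.998 FPM, so that replicate 1 alone lay within the range of the GM libraries.

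**Figure D3:**
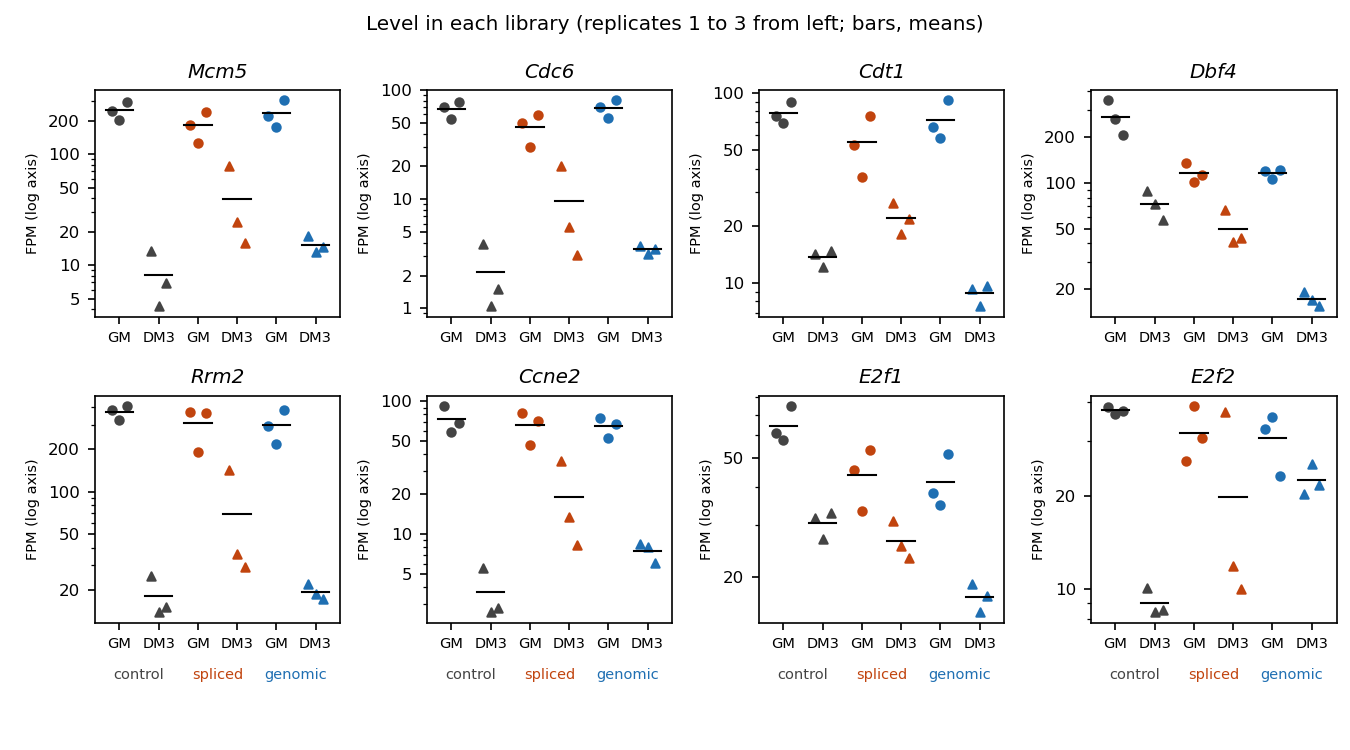
FPM in each library for Mcm5, Cdc6, Cdt1, Dbf4, Rrm2, Ccne2, E2f1 and E2f2, on log axes. Points are the 3 replicates of each line and medium and bars are means. In MUNC spliced DM3, replicate 1 lies above replicates 2 and 3 in all 8 panels, and Dbf4 is lower in both MUNC lines than in control GM.

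In GM, the level of replication genes in growing cells was compared between each MUNC line and control. Each form of MUNC is represented by a single line, so MUNC and other differences between the lines cannot be told apart in either medium. In MUNC spliced cells 9 of the 44 genes were lower than in control and 0 higher (limma, 17.3% of all genes were called lower and 18.2% higher). At an unadjusted p under 0.05, 14 of the 44 differed. The 9 were Dbf4, Mcm2, Lig1, Rpa1, Pold2, E2f1, Orc6, Pole2 and Gins4, from -1.19 to -0.41 on the log2 scale. The median of the 44 was -0.41, against -0.02 over all genes. With the replicate number as a block, 15 were called lower. Without MUNC spliced GM replicate 2 the count was 2, without control GM replicate 1 it was 5 and without control GM replicate 3 it was 3. With FPM rescaled to equal sums, 4 were lower, and the share of all genes called was 12% lower and 23.4% higher.

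In MUNC genomic GM 2 of the 44 genes were lower than in control and 0 higher (14.5% of all genes lower, 12.2% higher). These were Dbf4, at a log2 difference of -1.19 ± 0.20 (SE, adjusted p = 0.000344), and E2f1, at -0.63 ± 0.18 (SE, adjusted p = 0.0147), both by limma and in 3 of 3 libraries. The median of the 44 was -0.07. With the replicate number as a block, 3 were lower and 1 higher. The E2f1 call was lost without control GM replicate 3, MUNC genomic GM replicate 1 or MUNC genomic GM replicate 2. In MUNC spliced GM, Dbf4 differed from control by -1.19 ± 0.20 (SE, adjusted p = 0.000287). The comparisons of both MUNC lines share the control libraries.

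In DM3, MUNC spliced cells held more RNA than control for 30 of the 44 genes and less for 1, Dbf4 (limma, 22.3% of all genes were called higher and 21% lower). The median log2 difference was 0.83, against 0.01 over all genes. All 10 licensing genes and all 8 genes of the clamp, clamp loader and single-strand binding were higher, as were 5 of 8 polymerase and primase genes, 3 of 8 helicase activation genes, 3 of 4 genes of deoxynucleotide supply and Ccne2. Mcm5 had the largest log2 difference at 1.94 ± 0.45 (SE, adjusted p = 0.00227), then Ccne2 at 1.93 ± 0.38 (SE, adjusted p = 0.000612). Mcm4 differed by 1.56 ± 0.28 (SE, adjusted p = 0.000342) and Mcm7 by 1.29 ± 0.23 (SE, adjusted p = 0.000304), both by limma and with no overlap. Fen1, Lig1, Ccne1, E2f1 and E2f2 were not called by limma. E2f2 had an adjusted p of 0.0506 by limma, and the authors' deposited table called it higher (log2 fold change 1.13, adjusted p = 0.0211). The libraries did not overlap, with MUNC spliced higher, for 23 of the 44 genes, against 26.9% of all genes. In the authors' deposited table for this comparison, 28 of the 44 were called higher and 0 lower, with 17.1% of its genes higher and 16% lower.

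The count depended on single libraries, and the share of all genes called in these fits is not given beside it. Without MUNC spliced DM3 replicate 1, 19 genes were higher and 3 lower, at a median of 0.46. Without control DM3 replicate 2, 20 were higher and 0 lower. In a fit restricted to the 6 libraries compared, 19 were higher. Among the genes named by rule, the calls of Cdc6, Cdt1, Mcm10, Prim2, Pcna, Rfc5 and Rpa2 were lost without MUNC spliced DM3 replicate 1. Those of Orc6, Mcm2, Mcm3, Mcm4, Mcm5, Mcm7, Pole, Pole2, Rfc1, Rfc3, Rrm1, Rrm2 and Ccne2 were kept in each of 6 fits that left out 1 library of the compared groups.

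Markers of cycling cells outside the 44 were not called in this comparison. Mki67, Top2a, Ccnb1, Cdk1, Bub1, Aurkb and Birc5 act in G2 and mitosis or mark proliferating cells, and 0 of these 7 were called (limma, and 0 at an unadjusted p under 0.05), with a median log2 difference of 0.15 and a range from -0.02 to 0.58. Mki67 was at 83.7, 47.8 and 73.5 FPM in control DM3 and 192, 42.3 and 49.3 FPM in MUNC spliced DM3. Top2a was at 183, 93.9 and 118 FPM and 455, 97.3 and 97.3 FPM. MUNC spliced replicate 1 was the highest of the 6 libraries for both, and replicates 2 and 3 lay within or below the control range. Without that replicate, 3 of the 7 markers were lower than in control and 0 higher, at a median of -0.53. The summed level of the 7 markers ranged from 205 to 391 FPM in control DM3 and from 202 to 926 FPM in MUNC spliced DM3. Other markers moved with the line as well. The summed level of the 8 matched myotube markers, of 10 listed, ranged from 18.2 to 25.6 FPM in control DM3 and from 173 to 951 FPM in MUNC spliced DM3. The 7 fibroblast markers, led by Col3a1 and Col1a1, summed to 7016 to 8276 FPM and to 14300.6 to 15349.8 FPM, with Thy1 at 0 in MUNC spliced DM3. The part of cell cycle stage and of these marker genes in the result was not tested.

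**Figure D4:**
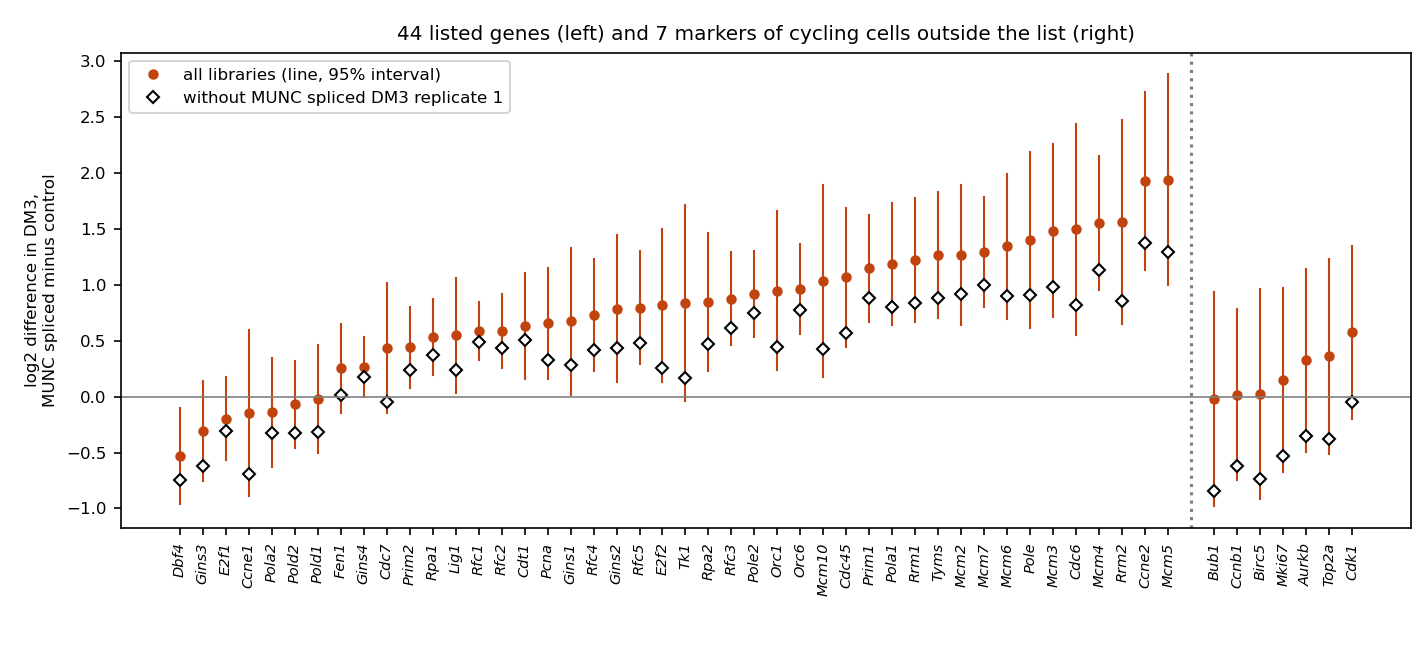
Log2 difference between MUNC spliced and control cells in DM3 on the log2(FPM + 1) scale, for the 44 genes on the left and 7 markers of cycling cells on the right. Filled points are limma estimates with 95% intervals, and open diamonds are estimates without MUNC spliced DM3 replicate 1. The median falls from 0.83 to 0.46 for the 44 genes and from 0.15 to -0.53 for the 7 markers when that library is left out.

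In MUNC genomic DM3, 5 of the 44 genes were higher than in control and 5 lower (limma, 19.3% of all genes higher and 20.9% lower). The median log2 difference was 0.33, against -0.01 over all genes. The higher genes were Mcm2 (1.42), E2f2 (1.23), Mcm6 (1.12), Rfc3 (0.62) and Gins4 (0.56). The lower genes were Dbf4 (-1.996), Gins3 (-0.96), E2f1 (-0.79), Pola2 (-0.71) and Cdt1 (-0.59). Dbf4 had the largest difference, with an SE of 0.20 and an adjusted p of 7.40e-07 by limma, and was lower in 3 of 3 libraries. E2f1 and E2f2, both activators of the E2F family, thus differed from control in opposite directions. Cdt1 was no longer called in any of 6 fits that left out 1 library, nor with FPM rescaled to equal sums. With the replicate number as a block, 12 were higher and 5 lower, and without control DM3 replicate 1, 14 were higher and 3 lower. The authors' deposited table called 12 of the 44 higher (19% of its genes) and 6 lower (20.3%).

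The fall from GM to DM3 itself was compared between lines as a difference of differences. The fall was smaller in MUNC spliced than in control cells for 23 of the 44 genes and larger for 0 (limma, 7.43% of all genes were called higher in this sense and 6.94% lower). The median difference was 1.29 on the log2 scale, and the estimate was above 0 for 43 of the 44. Gins3 was the exception, at -0.03. Both media enter this difference, with medians of MUNC spliced against control of -0.41 in GM and 0.83 in DM3. Gins4 and Lig1, called in this difference, were called lower than control in GM and were not called in DM3. The differences of Mcm5 (2.40 ± 0.63), Mcm3 (2.27 ± 0.52) and Mcm2 (2.08 ± 0.42, SE) were the largest. Orc6 (1.5 ± 0.27 (SE, adjusted p = 0.00283)) and Pole2 (1.42 ± 0.26 (SE, adjusted p = 0.00289)) were called by limma in each of 12 fits that left out 1 library. So were Mcm2, Mcm3, Mcm7 and Rrm1, whereas Cdc6 lost its call in 7 of 12 such fits, Pcna in 5, and Mcm10 and Rfc5 in 8 each. The count fell to 10 without MUNC spliced GM replicate 2, to 11 without control DM3 replicate 2, to 12 without control DM3 replicate 3 and to 8 without both MUNC spliced libraries that stood apart. With the replicate number as a block within each medium, chosen after seeing the data, the count was 37. Without MUNC spliced DM3 replicate 1 alone, 16 of the 44 were called, at a median of 0.94. Of the 7 cycling markers, 0 were called by limma in this difference (0 at an unadjusted p under 0.05), at a median of 0.72 with all libraries. Without both MUNC spliced libraries that stood apart, the median was -0.07 for the 7 markers and 0.73 for the 44 genes.

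Between MUNC genomic and control cells, the fall differed for 1 gene, E2f2 (1.54 ± 0.46 (SE, adjusted p = 0.0458), limma, with 3.56% of all genes called higher and 5.25% lower). E2f2 kept 73.2% of its GM level in MUNC genomic cells and 23.9% in control cells. The call was lost in 12 of 12 fits that left out 1 library and in edgeR's test on recovered reads. At an unadjusted p under 0.05, 6 of the 44 differed. With the replicate number as a block, 5 were called, and with that block within each medium, chosen after seeing the data, 9. Gins3 was at -0.97 ± 0.30 (SE, adjusted p = 0.0533) and Gins4 at 0.54 ± 0.18 (SE, adjusted p = 0.0818), neither called.

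Between MUNC spliced and MUNC genomic cells, the fall was smaller in MUNC spliced cells for 9 of the 44 genes and larger for 0 (limma, 5.36% of all genes higher and 5.17% lower). The 9 were Cdt1, Dbf4, Mcm4, Lig1, Prim1, Rrm1, Pole2, Mcm7 and Orc6. Cdt1, the licensing factor that geminin inhibits, differed most, at 1.64 ± 0.32 (SE, adjusted p = 0.00356), and Dbf4 followed at 1.46 ± 0.29 (SE, adjusted p = 0.00395). Cdt1 was at 26.3, 18.1 and 21.8 FPM in MUNC spliced DM3, 14.3, 12.1 and 14.8 FPM in control DM3 and 9.34, 7.55 and 9.62 FPM in MUNC genomic DM3, with no overlap between the lines. Cdt1 and Dbf4 were called in each of 12 fits that left out 1 library, whereas Rrm1 and Mcm7 were each lost in 8. The count ranged from 3 without MUNC spliced GM replicate 2 to 17 without MUNC spliced DM3 replicate 3. It was 4 without MUNC genomic GM replicate 1 or DM3 replicate 3, and 5 without MUNC genomic GM replicate 3 or DM3 replicate 2. With the replicate number as a block it was 18, and with that block within each medium, chosen after seeing the data, 32.

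The order of the falls across the 44 genes was similar in the 3 lines, whose exits share no library. Spearman's rho across genes was 0.817 between control and MUNC spliced cells, 0.882 between control and MUNC genomic cells and 0.840 between the MUNC lines, as a description over genes that are not independent replicates. Mcm5, Cdc6, Rrm2 and Mcm10 were among the 5 largest falls in each line, and Rfc1, Gins4 and E2f1 among the 4 smallest. By estimate, 43 of 44 genes fell more in control than in MUNC spliced cells, and 36 of 44 fell more in control than in MUNC genomic cells.

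A further 48 genes of the pathway, listed by function, were all tested. In control cells 39 of them fell and 3 rose, in MUNC spliced cells 36 fell and 2 rose, and in MUNC genomic cells 40 fell and 1 rose (limma). Of all genes tested, 28.6% fell and 29.6% rose in control, 18.4% and 17.2% in MUNC spliced and 25.1% and 26.3% in MUNC genomic cells. Uhrf1, which recruits the maintenance DNA methyltransferase to replicated DNA, changed by -3.99 in control, -2.38 in MUNC spliced and -3.85 in MUNC genomic cells. Exo1, an exonuclease of mismatch repair, changed by -3.99, -2.46 and -3.65. The 3 that rose in control cells were Samhd1, which degrades deoxynucleotides (1.12), Tfdp2, a partner of E2F proteins (0.80), and Ccnd2, a D-type cyclin (0.50). In DM3, 18 of the 48 were higher in MUNC spliced than in control cells and 5 lower, against 22.3% of all genes higher and 21% lower. The higher ones included the atypical repressor E2f7 (1.38) and Timeless of the replication fork protection complex (1.30), and Ccnd2 was among the lower (-2.16). The fall was smaller in MUNC spliced than in control cells for 11 of the 48 (7.43% of all genes were called higher in this sense and 6.94% lower), and Tfdp2, which rose in control cells, was called in the other direction (-0.90). In MUNC genomic DM3, 5 of the 48 were higher than in control and 6 lower, both smaller shares than the 19.3% and 20.9% of all genes. The lower ones included Samhd1 at -1.64 and E2f6, a repressor of the E2F family, at -1.40.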

How the data were processed

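The deposited table holds 1 value per gene and library, a signal in FPM that the authors made by dividing counts by a library factor. A label calls it FPKM, but division of each value by its library's step returned whole reads for 100% of values (within 0.1 of a read, largest distance 0.0348), whereas division by gene length would give each gene its own step. STAR, HTSeq, DESeq2 and mm10 are named, without versions, per the submitters' processing notes. Strandedness and annotation are not given in the sources used here. The authors' deposited comparison tables give log2 fold changes and p-values. Groups were taken from sample titles, and a source label disagreed with the title in 9 samples.

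Differences were tested with limma 3.58.1 (R 4.3.3, eBayes with trend) on log2(FPM + 1), which understates changes of low genes, over the 13869 genes that reached 0.5 FPM in 3 or more libraries. A model of the 6 group means was fitted to all 18 libraries (12 residual degrees of freedom), and calls were made at p under 0.05 after Benjamini-Hochberg adjustment over all genes tested. On simulated data with 200 of 13869 genes changed, for the exit of control cells, 82% of log2 changes of 1 and 96% of changes of 2 were recovered. The changed genes were drawn from those with higher counts, and 11 unchanged genes were called. In the data, 28.6% of genes were called lower and 29.6% higher in this comparison, so these rates do not describe it. Alternatives included edgeR 4.0.16 and DESeq2 1.42.0 on recovered reads. Gene positions and overlaps are from GENCODE M21 (GRCm38).

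The 44 genes, the further list, the markers and the tests were chosen with earlier results of these data known. Genes given with values per library were the lowest and highest of each role group in control cells, textbook names (Mcm2, Pcna, Cdc6, Ccne1, Ccne2, E2f1, E2f2), called differences in exit (the 3 highest and lowest where over 6) and the highest and lowest called gene of each line comparison. Mcm6, Cdt1 in DM3 and other genes beyond this rule were named after their values were seen. Same-numbered replicates deviated together (correlation over 0.1 in 3 of 3 pairs) in the exit of control cells and in the 4 comparisons of a MUNC line with control. By these correlations the numbers pair the samples there, but the labels do not say that a number marks a shared batch. Over all groups, 36 of 45 same-numbered pairs correlated over 0.1, as did 9 of 90 pairs with different numbers, at up to 0.32. The reported fit has no replicate block, and the blocked count is given beside each result it moved by over 1.5 times. The limit from 3 reads covers counting error only, whereas SEs and 95% intervals are limma's and include the spread between replicates.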

Additional observations from a re-analysis of the deposited data

Results flagged for a closer look

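The fall from GM to DM3 differed between lines, by limma's test of the difference itself, for the genes given here as log2 differences in the fall, with positive values for a smaller fall in the first line named. None of these values is weighed further.

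For MUNC spliced minus control, the licensing genes were Mcm5 at 2.40, Mcm3 at 2.27, Mcm2 at 2.08, Cdc6 at 2.07, Mcm6 at 1.62, Mcm4 at 1.55, Orc6 at 1.5, Mcm7 at 1.34 and Cdt1 at 1.19. Of helicase activation, Mcm10 was at 1.80 and Gins4 at 0.67. Of the polymerases and primase, Pola1 was at 1.59, Pole2 at 1.42 and Prim1 at 1.31. Of the clamp, loader and single-strand binding genes, Rpa2 was at 1.45, Rpa1 at 1.29, Pcna at 1.22, Rfc5 at 1.05 and Rfc3 at 0.89. The others were Lig1 at 1.33, Rrm1 at 1.67, Tyms at 1.46 and Ccne2 at 2.07. Adjusted p over these 23 genes was highest for Rfc5, at 0.048.

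For MUNC genomic minus control, E2f2 was at 1.54. For MUNC spliced minus MUNC genomic, Cdt1 was at 1.64, Dbf4 at 1.46, Mcm4 at 1.34, Lig1 at 1.24, Prim1 at 1.24, Rrm1 at 1.22, Pole2 at 1.10, Mcm7 at 1.09 and Orc6 at 1.07. MUNC spliced DM3 replicate 1 and MUNC spliced GM replicate 2, the libraries that stood apart, enter every difference with MUNC spliced cells.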

How the results depend on the processing

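For the genes named by rule, no call reversed its direction under the alternatives checked. Changes of the filter on low values were not part of this check, nor were the other listed genes. The median fall ranged from -2.77 to -2.54 in control, -1.94 to -1.22 in MUNC spliced and -2.55 to -2.32 in MUNC genomic cells. Of 2420 values under these alternatives, for the genes named by rule and the median falls, 2179 kept direction and, for genes, side of the threshold. The other 241 kept direction but lost the call. For genes, these values cover every fall from GM to DM3 but only those other comparisons that were called in the reported fit. The share that kept the call therefore does not describe the comparisons between lines alone. Counts of the 44 genes called are given in the order of the comparisons. Apart from equal sums for MUNC spliced in GM, the share of all genes called in an alternative fit is not given. A moved count therefore cannot be read as particular to the 44 genes. At an absolute log2 change of at least 1, they were 1 for MUNC spliced and 1 for MUNC genomic against control in GM, and 16 and 4 in DM3. Rescaling to equal sums gave 4 for MUNC spliced in GM. Fits restricted to the libraries compared gave 19 for MUNC spliced and 17 for MUNC genomic in DM3, and 11, 3 and 5 for the differences in exit (MUNC spliced minus control, MUNC genomic minus control, MUNC spliced minus MUNC genomic). Without a filter on low values the latter 2 were 0 and 5. MUNC genomic minus control gave 2 with quantile normalization, 2 with DESeq2 and 0 with edgeR, and MUNC spliced minus MUNC genomic gave 19 with DESeq2. The cause was not tested.

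With the replicate block, counts were 15 for MUNC spliced and 4 for MUNC genomic in GM, 17 for MUNC genomic in DM3, and 5 and 18 for MUNC genomic minus control and MUNC spliced minus MUNC genomic. In the exits of both MUNC lines not all same-numbered pairs correlated over 0.1, so there the samples share only a number. In both differences in exit from control, 15 of 18 such pairs correlated over 0.1, and within each medium all did. For MUNC spliced minus MUNC genomic it was 13 of 18. By these correlations, and not by the labels, the numbers pair the samples within each medium in the differences from control. The reported fit leaves this pairing out. A replicate block within each medium, chosen after seeing the data, gave 18, 9 and 22 for the same line comparisons and 37, 9 and 32 for the differences in exit. The block moved no other count by over 1.5 times. Without both MUNC spliced libraries that stood apart, also chosen after seeing the data, counts were 4 for MUNC spliced in GM, 8 for MUNC spliced minus control and 3 for MUNC spliced minus MUNC genomic.

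Leaving out 1 library at a time gave 44 to 44 genes lower for the exit of control cells, 42 to 44 for MUNC spliced and 43 to 43 for MUNC genomic cells. Against control, counts ranged from 2 to 12 for MUNC spliced and 1 to 2 for MUNC genomic in GM, and from 20 to 34 and 8 to 17 in DM3. The differences in exit ranged from 10 to 33, 0 to 1 and 3 to 17. Depth did not limit detection of these genes, but 3 replicates per group limit the precision of each difference.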
